A study of Mus musculus with 10 samples.

Results

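Signal transducers and activators of transcription (STATs) are transcription factors that carry signals from cytokine receptors to the nucleus, and suppressors of cytokine signalling (SOCS) are the inhibitors that end those signals. The genes described here are Stat2, Stat3, Stat4, Stat5a, Stat5b, Stat6, Socs1 and Socs3, taken by gene name. They are 8 of the 545 endogenous genes of an nCounter mouse immune panel. The panel counts fluorescent barcodes that bind target molecules, here cDNA amplified by PCR, without sequencing. It was read in microglia, the resident macrophages of brain tissue, sorted from hippocampi of male Balbc pups at postnatal day 14. Control pups (n = 5, numbered 1, 18, 40, 52 and 69) were compared with pups given brief daily separation (BDS; n = 5, numbered 11, 17, 24, 38 and 59). BDS pups were taken from their mother for 15 min a day on a schedule given in the labels as postnatal days 1 to 21, and at day 14 they were still on it. The labels name no genetic change in either group, and each pup came from a different litter and was read in 1 lane.

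When a cytokine binds its receptor, Janus kinases on the receptor's tail phosphorylate STAT proteins, which pair up, enter the nucleus and switch on target genes. Socs1 and Socs3 are among those targets in many cells, and their proteins act back on the receptor or its kinases. In microglia and other macrophages Stat3 is best known for signals of the interleukin-6 and interleukin-10 families, Stat6 for interleukin-4 and interleukin-13, Stat2 for type I interferon and the Stat5 pair for growth factors such as granulocyte-macrophage colony-stimulating factor. STAT activity is set mostly by phosphorylation, which an RNA count does not measure.

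Total endogenous counts per lane ran from 76237 to 802033 in control lanes and from 341679 to 968930 in BDS lanes. Lanes were put on 1 scale by the geometric mean of 6 housekeeping genes, which was 1.23 higher in BDS lanes on a log2 scale, and values on that scale are called normalized counts below. Lane depth, used below as a covariate, is the log2 of that mean. It differed between the groups, so a fit with this covariate cannot fully separate depth from group. Controls 52 and 69 were the shallowest lanes, and their part in the results was examined by leaving them out. A gene counted as present in a lane when its raw count exceeded the mean plus 2 SD of that lane's negative-control probes, and 283 genes present in at least 4 of 10 lanes were tested. All 10 microglia markers looked for, Csf1r, Cx3cr1, Trem2 and C1qa among them, were present in 10 of 10 lanes. Of 13 T cell markers 0 reached 4 lanes, and Cd3d, Cd3e and Zap70 were above the limit in none. The summed normalized counts of the 13 ran from 104 to 479 in control lanes and from 83.8 to 129 in BDS lanes. They were highest in the shallow control 52, whose limit of 124 normalized counts was the highest of the 10 lanes. The part of background in that sum was not tested. Of 8 B cell markers 3 reached 4 lanes (Cd79b, Blnk and Btk), while Ms4a1 and Pax5 were above the limit in 0 lanes. Of 4 endothelial markers 3 reached 4 lanes, and the summed normalized counts of all 4 ran from 765 to 1685 in control lanes and from 990.1 to 1085 in BDS lanes. Of 6 neutrophil and monocyte markers Ccr2 alone reached 4 lanes. The summed microglia markers ran from 140141 to 195158 in control lanes and from 146764 to 179839 in BDS lanes. The part of other cell types in the results below was not tested.

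Promoter sequence is shown for 3 tested genes, Socs3, Socs1 and Stat2, whose window holds a short motif of the pathway's factors; that of Stat4, which was not tested, is left out. The windows, from RefSeq for build GRCm38.p6, run from 250 bases before to 50 bases after each start site. The motif TTCNNNGAA, the core that STAT pairs bind and the same on both strands, was found in 1 of the 11 windows of these genes, that of Socs3, and in 8.30% of all 32851 windows. The motif GAAANNGAAA or its reverse complement TTTCNNTTTC, the repeat that the interferon complex containing Stat2 binds, was found in 3 of the 11 windows, those of Socs1, Stat2 and Stat4, and in 3.44% of all windows. A match describes the letters and does not show that a factor binds there. Below are 100 bases of each of 3 windows, all before the start site, 5′ to 3′ on the gene's strand, with the matches in capitals. They are Socs3 at chr11:117969466-117969565 (minus strand), Socs1 at chr16:10785562-10785661 (minus strand) and Stat2 at chr10:128270248-128270347 (plus strand).
Socs3: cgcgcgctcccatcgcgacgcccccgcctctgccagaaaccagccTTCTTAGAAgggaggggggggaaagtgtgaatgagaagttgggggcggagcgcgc
Socs1: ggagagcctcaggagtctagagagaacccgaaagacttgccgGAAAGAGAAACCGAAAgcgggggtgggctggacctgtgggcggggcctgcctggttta
Stat2: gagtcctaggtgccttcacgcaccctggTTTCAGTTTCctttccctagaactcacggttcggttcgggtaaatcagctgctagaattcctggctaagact
The match of Socs3 began 154 bases before the start site and that of Stat2 222 bases before it. Socs1 held 2 overlapping matches, the first of which began 83 bases before the start site. In the RefSeq gene order Stat5b, Stat5a and Stat3 lie next to each other on chromosome 11, and Socs3 lies elsewhere on that chromosome.

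The comparison asked which of these genes differed between hippocampal microglia of BDS and control pups. In the quasi-likelihood test of edgeR none of the 283 tested genes had an adjusted p under 0.05 (0.00%), so 0 of the 7 tested STAT and SOCS genes did, where 80 genes had an unadjusted p under 0.05, DESeq2 called 25 at an adjusted p under 0.05 and limma called 0. Socs3 had the largest difference among the 7, at about 1.9 times the control level, and was the 1 gene of the 7 with an unadjusted p under 0.05. That bound was passed by 28.3% of all tested genes, 19.4% higher and 8.83% lower in BDS, so 1 of 7 does not set these genes apart from the panel. Of the 7, 5 had a log2 fold change above 0, against 55.8% of tested genes, and their median was 0.29 against 0.09 for all 283. Without BDS 17 these medians were 0.13 and 0.06, and without control 1 they were 0.19 and 0.08, and with 1 pup left out 4 to 7 of the 7 genes were above 0. Counts come from a sorted population, so fewer cells that express a gene and less RNA per cell cannot be told apart. In none of the 7 did the lanes of both groups separate fully, which 4.59% of tested genes did.

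**Figure D1:**
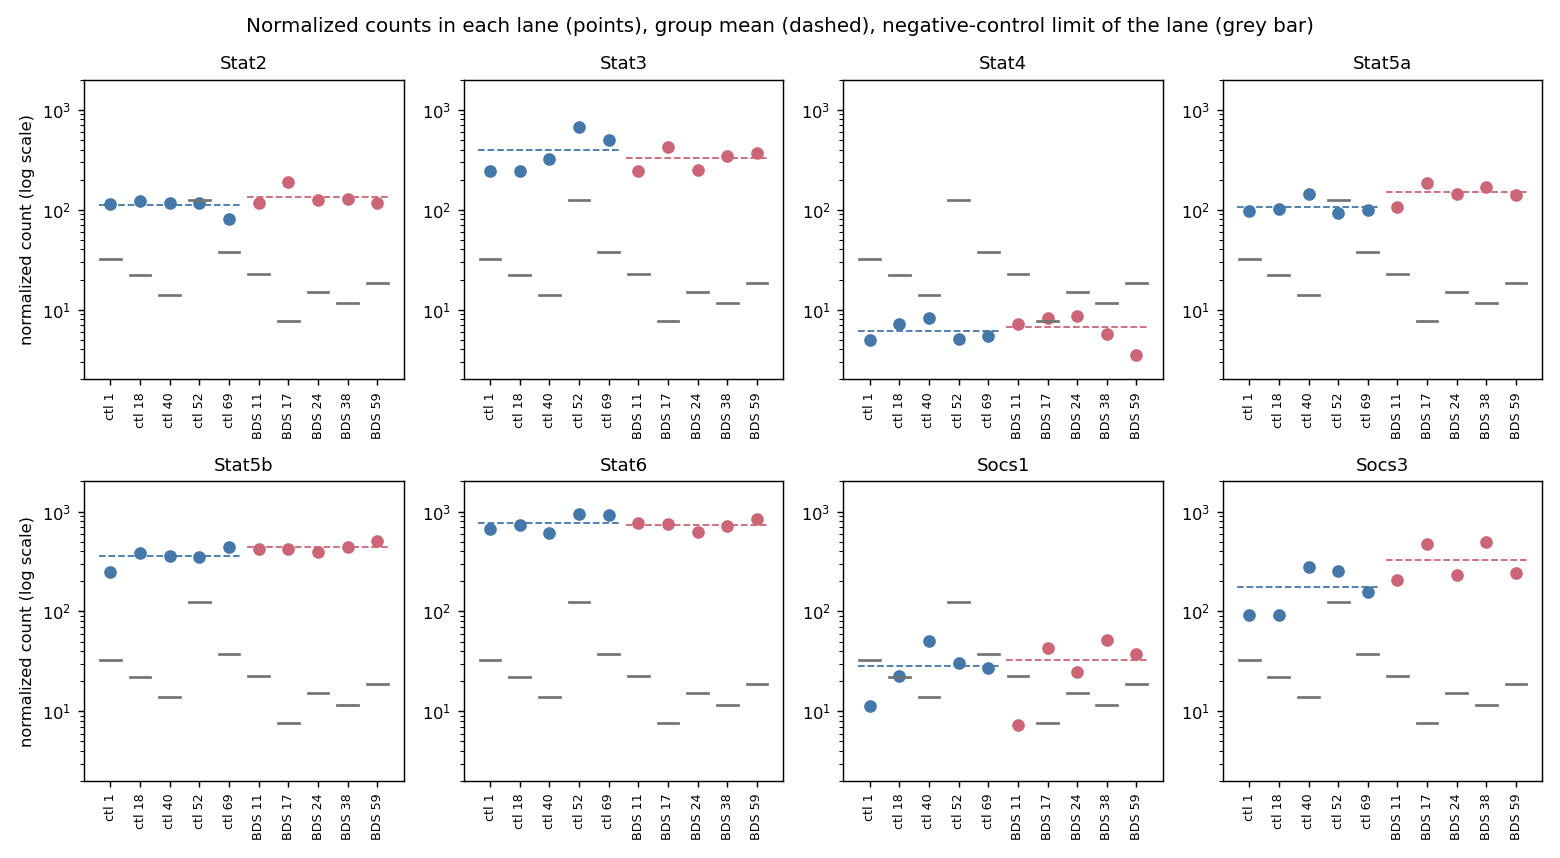
Normalized counts (log axis) of the 8 genes in each lane, control lanes in blue and BDS lanes in red, with dashed group means and a grey bar at each lane's negative-control limit. Socs3 stood highest in BDS 38 and BDS 17, Stat3 highest in control 52 and control 69, and Stat4 stayed under the limit in 9 of 10 lanes.

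Socs3 encodes the inhibitor that binds the shared interleukin-6 receptor chain and blocks its Janus kinases, and it is itself a well-known target of Stat3. It stood at 91.2, 91.9, 280.5, 255 and 155 normalized counts in controls 1, 18, 40, 52 and 69. Its values in BDS 11, 17, 24, 38 and 59 were 207, 470.1, 230.1, 496 and 242. BDS 38 and BDS 17 were the 2 highest lanes of all, and controls 1, 18 and 69 were the 3 lowest. Controls 40 and 52 lay inside the BDS range, so the groups overlapped. The mean was 329 ± 142 over BDS lanes and 175 ± 89.3 over control lanes (SD, n = 5 per group), a fitted log2 change of 0.94 ± 0.37 (SE; unadjusted p = 0.0219, adjusted p = 0.132, both by edgeR). All 5 BDS lanes exceeded the control mean. Without control 40 the log2 fold change was 1.23 (edgeR adjusted p = 0.0434). In that fit 48 of the 283 tested genes had an adjusted p under 0.05, so passing it does not set Socs3 apart. Over 29 alternative fits the adjusted p of Socs3 ran from 0.0434 to 0.372. It was 0.80 with lane depth as a covariate (unadjusted p = 0.101) and 1.07 without controls 52 and 69. With control 1, control 18, BDS 17 or BDS 38 left out it was 0.77, 0.76, 0.77 and 0.74. Socs3 missed the unadjusted bound of 0.05 with each of these single pups left out and with lane depth as a covariate. Without controls 52 and 69 Socs3 passed that bound, but without these and BDS 17 (0.91) Socs3 missed it. It also missed that bound on scaling without Sdha (0.75) and by limma on the authors' values (0.78). Leaving out any other single pup gave 0.90 to 1.23, within the bound. Raw counts of Socs3 exceeded the limit in every lane, from 50 in control 52 to 1023 in BDS 17.

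Socs1 encodes the inhibitor best known for damping interferon signalling, and its signal lay near background. It was above the limit in 6 of 10 lanes, 2 control and 4 BDS, with raw counts from 6 to 100. Normalized counts were 11.2, 22.5, 50.01, 30.6 and 27.2 in controls 1, 18, 40, 52 and 69, of which only 18 and 40 were above the limit. They were 7.26, 43.2, 24.9, 51.8 and 37.6 in BDS 11, 17, 24, 38 and 59, and BDS 11 was below the limit. The lowest and the highest lane were both BDS lanes, so the control range lay inside the BDS range. The control lanes averaged 28.3 ± 14.2 and the BDS lanes 32.9 ± 17.4 (SD, n = 5 per group), with a fitted log2 change of 0.22 ± 0.46 (SE; adjusted p = 0.769 by edgeR). The SE is more than the fold change itself, and the sign was negative with lane depth as a covariate, at -0.21. Within groups the coefficient of variation was 50.04% and 52.7% for Socs1, and 51.1% and 43.0% for Socs3, in control and BDS lanes. The median over all tested genes was 31.2% and 19.9%.

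Stat3, the factor behind interleukin-6 and interleukin-10 signals, was high in the shallowest lanes. Normalized counts were 244 and 242 in controls 1 and 18, 320.2 in control 40, 668 in control 52 and 499.8 in control 69. In BDS 11, 17, 24, 38 and 59 they were 243, 425, 252.1, 344 and 373. The BDS lanes all fell between the lowest and the highest control lane, so the groups overlapped. The control lanes averaged 395 ± 185 and the BDS lanes 328 ± 78.5 (SD, n = 5 per group), a fitted log2 change of -0.24 ± 0.29 (SE; adjusted p = 0.592 by edgeR). Without control 52 that value was 0.02, without both shallow lanes 0.29, and with lane depth as a covariate 0.21, so the data do not fix a direction. Raw counts of Stat3 ran from 131 to 925.

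Stat6, which carries interleukin-4 and interleukin-13 signals, had the fitted change nearest to 0 among the 7 genes. It stood at 667, 733, 615, 938 and 913 normalized counts in controls 1, 18, 40, 52 and 69, and at 768, 746, 628, 709 and 845 in BDS 11, 17, 24, 38 and 59. As with Stat3, the 2 highest lanes were controls 52 and 69, and every BDS lane lay within the control range. The mean was 773 ± 145 over control lanes and 739 ± 79.8 over BDS lanes (SD, n = 5 per group), a fitted log2 change of -0.06 ± 0.18 (SE; adjusted p = 0.849 by edgeR). Its sign turned to 0.14 without controls 52 and 69 and to 0.18 with lane depth as a covariate.

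**Figure D2:**
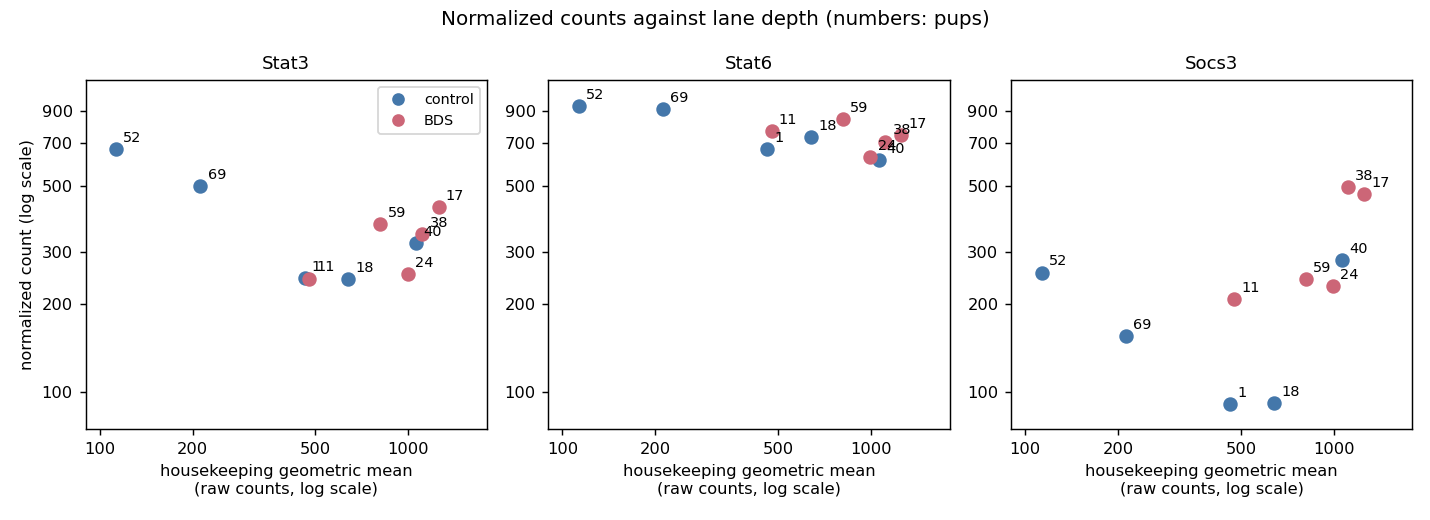
Normalized counts of Stat3, Stat6 and Socs3 (log axis) against the housekeeping geometric mean of the lane in raw counts (log axis), with pup numbers beside the points. Controls 52 and 69, at the left, were the highest lanes for Stat3 and Stat6 but not for Socs3.

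Stat5a and Stat5b are close copies that serve growth factor and interleukin-2 family receptors. Stat5a stood at 97.4, 102, 145, 91.8 and 100.5 normalized counts in controls 1, 18, 40, 52 and 69. The BDS lanes 11, 17, 24, 38 and 59 gave 108, 184, 144, 169 and 142. Every BDS lane exceeded 4 of the 5 control lanes, and control 40 lay among the BDS lanes. In control 52 the raw count of 18 was below the limit. The BDS lanes averaged 149 ± 29.2 and the control lanes 107 ± 21.2 (SD, n = 5 per group), a fitted log2 change of 0.46 ± 0.23 (SE; unadjusted p = 0.0580, adjusted p = 0.182, both by edgeR). It was 0.21 with lane depth as a covariate and 0.38 without controls 52 and 69.

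Stat5b stood at 247, 384, 360.4, 347 and 443 normalized counts in controls 1, 18, 40, 52 and 69. In BDS 11, 17, 24, 38 and 59 it stood at 426, 419, 394, 446 and 503. Control 69 lay among the BDS lanes and the other 4 control lanes below them all. The means were 438 ± 40.9 and 356 ± 71.1 in BDS and control lanes (SD, n = 5 per group), a fitted log2 change of 0.30 ± 0.19 (SE; adjusted p = 0.283 by edgeR). It was 0.34 with lane depth as a covariate, 0.19 without control 1 and 0.11 when Sdha was left out of the scaling. Among the 7 genes the BDS lanes of Stat5b were the most alike, with a coefficient of variation of 9.34%.

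Stat2, the partner of type I interferon signalling, stood at 114, 122, 117, 117 and 81.5 normalized counts in controls 1, 18, 40, 52 and 69. Counts in BDS 11, 17, 24, 38 and 59 were 116, 192, 126, 127 and 116. BDS 17 stood far above all other lanes, control 69 far below them, and the remaining 8 lay between 114 and 127. In control 52 the raw count of 23 was below the limit. The BDS lanes averaged 135 ± 31.8 and the control lanes 110.3 ± 16.3 (SD, n = 5 per group), a fitted log2 change of 0.29 ± 0.23 (SE; adjusted p = 0.392 by edgeR). Without BDS 17, the deepest lane, it was 0.13, and with lane depth as a covariate 0.15. Without controls 52 and 69 and BDS 17 it was 0.05.

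Stat4 serves interleukin-12 signals and is best known from T and NK cells. It was above the limit only in BDS 17, where its raw count was 18, and so it was not tested. Raw counts were 4, 8, 15, 1 and 2 in controls 1, 18, 40, 52 and 69, and 6, 15, 11 and 5 in BDS 11, 24, 38 and 59. The limits were 13.9 to 26.3 raw counts, so a level of Stat4 below these could not be told from background. Among NK cell markers 2 of 6 were present in at least 4 lanes, Klrk1 and Prf1, while Klrd1 and Gzmb were above the limit in 0 lanes.

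**Figure D3:**
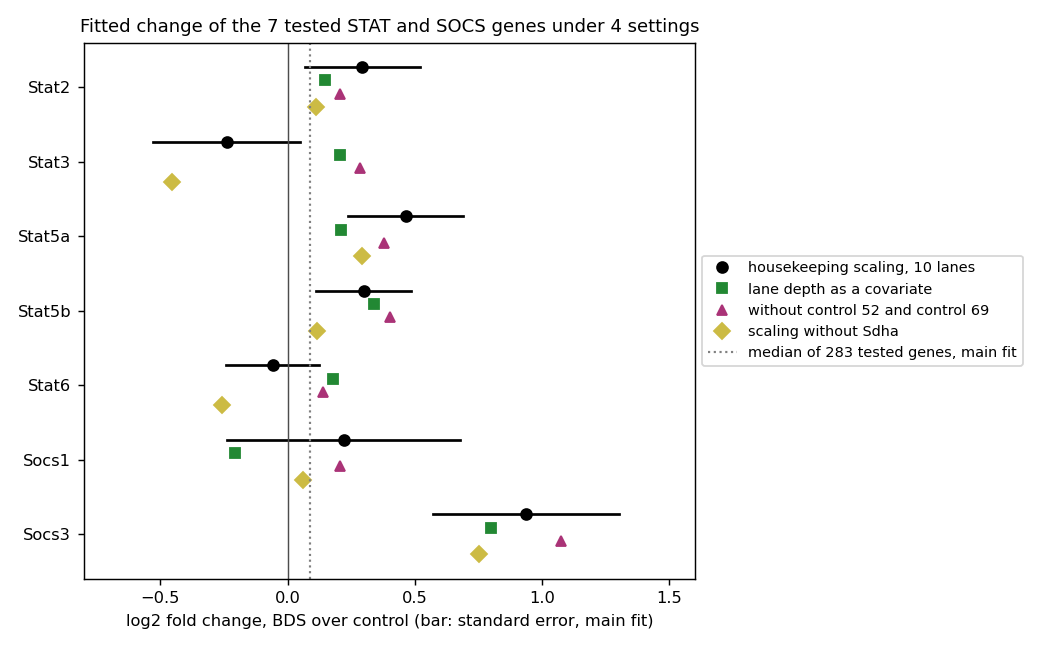
Log2 fold changes (BDS over control) of the 7 tested genes in the edgeR fit of all 10 lanes, with standard errors as bars, beside 3 other settings. Socs3 stayed between 0.75 and 1.07 in these 4 settings, while Stat3, Stat6 and Socs1 had values on both sides of 0.

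In the authors' deposited table the BDS over control ratio of means was 1.64 for Socs3 (deposited p = 0.1230) and 1.23 for Stat5a (deposited p = 0.0692). The authors' deposited table gave ratios of 1.08 for Stat2 and Stat5b, 1.02 for Socs1, 0.96 for Stat4, 0.83 for Stat6 and 0.71 for Stat3, none with a p below that of Stat5a. Its ratio for Stat3 and that of the present fit, 0.85, lie on the same side of 1. Scaling to the mean without Sdha moved the median of all tested genes from 0.09 to -0.09, and moved Socs3 to 0.75 and Stat3 to -0.45.

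**Figure D4:**
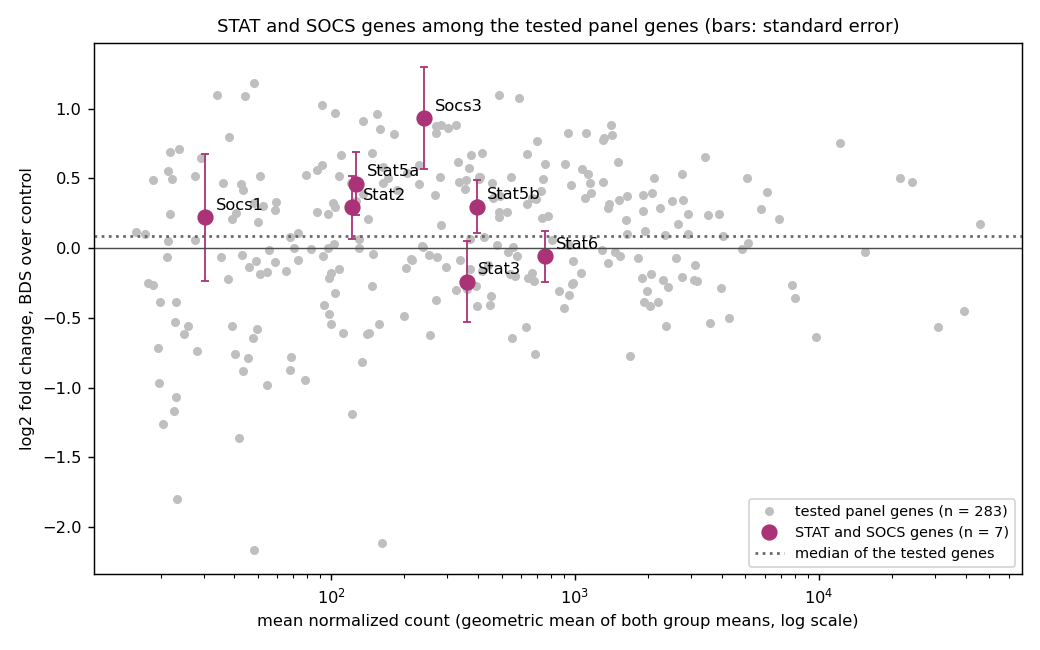
Log2 fold change (BDS over control) against mean normalized count (log axis) for the 283 tested genes in grey and the 7 tested STAT and SOCS genes in purple, with standard errors as bars. The 7 lie inside the cloud of panel genes, from -0.24 for Stat3 to 0.94 for Socs3.

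The scale factor of a lane cancels in a ratio of genes in the same lane, so 5 pairs were compared on raw counts plus 1. Background and the added count do not cancel, and they weigh more in shallow lanes and for low genes. Over all 10 lanes the largest difference was in Socs3 over Stat3, an inhibitor over a factor of which it is a known target. Whether Stat3 drove Socs3 in these cells was not tested. The log2 ratio was -1.41, -1.39, -0.19, -1.37 and -1.67 in controls 1, 18, 40, 52 and 69. In BDS 11, 17, 24, 38 and 59 it was -0.23, 0.15, -0.13, 0.53 and -0.62. Control 40 lay among the BDS lanes, and the other 4 control lanes lay below every BDS lane. The mean was -0.06 ± 0.43 over BDS lanes and -1.21 ± 0.58 over control lanes (SD, n = 5 per group), a difference of 1.14 on the log2 scale (exact two-sided permutation p = 0.0238, adjusted over the 5 pairs p = 0.0595). That adjusted value missed 0.05. All 5 BDS lanes exceeded the control mean. The difference was 0.93 without controls 52 and 69 (exact p = 0.107), where Socs1 over Socs3 differed by more, at -0.98. Of the 282 tested genes set over Stat3 in this way, 19.5% had an exact p under 0.05, 18.1% higher and 1.42% lower in BDS, so the pair does not stand alone on the panel.

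Socs1 over Socs3 was lower in BDS lanes, at -3.43 ± 0.72 against -2.52 ± 0.37 (SD, n = 5 per group), a log2 difference of -0.91 (exact two-sided permutation p = 0.0238, adjusted p = 0.0595). BDS 59 was the highest BDS lane at -2.66, within the control range, and all 5 BDS lanes lay below the control mean. With the negative-probe mean subtracted from each lane the difference was -0.17 (exact p = 0.873). Socs1 was above the limit in only 6 lanes. Over Socs3, 23.8% of the other 282 tested genes had an exact p under 0.05, all of them lower in BDS and 0.00% higher.

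For the other 3 pairs no difference beyond the spread between lanes was found. Stat5a over Stat5b differed by 0.14 ± 0.22 (SE; exact p = 0.508, adjusted p = 0.595), and by 0.04 to 0.24 with 1 pup left out. Stat6 over Stat3 differed by 0.13 ± 0.25 (exact p = 0.595) and Stat2 over Stat3 by 0.45 ± 0.36 (exact p = 0.310, adjusted p = 0.516; n = 5 per group). The latter was 0.26 without control 52, 0.23 without control 69 and -0.09 without both.

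**Figure D5:**
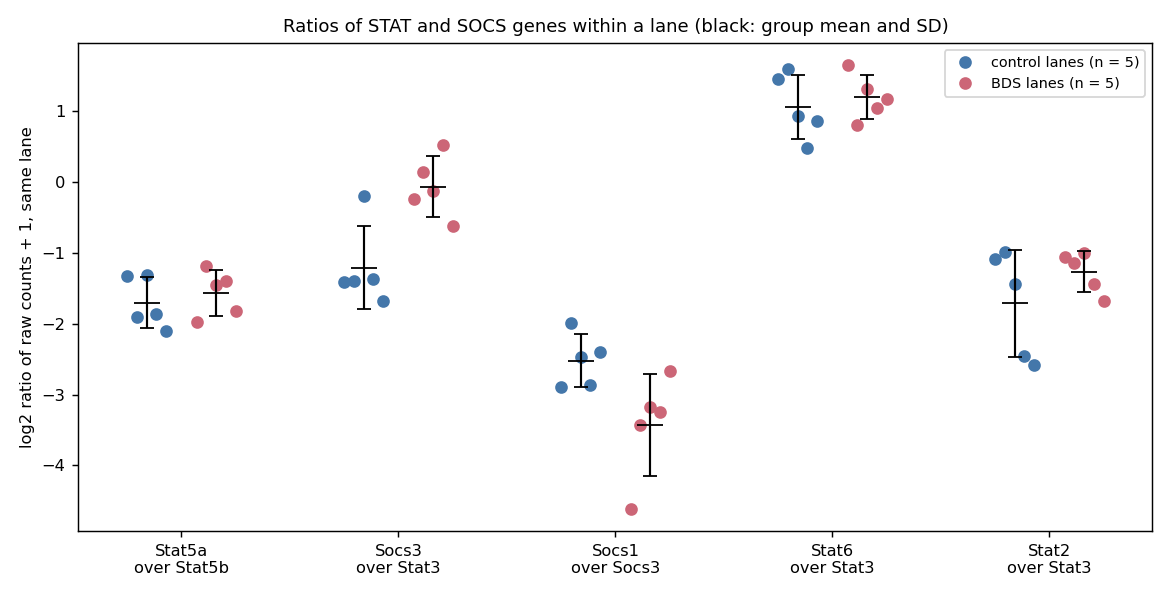
Log2 ratios of raw counts plus 1 for 5 gene pairs in each lane, control lanes in blue and BDS lanes in red, with group means and SD in black. All 5 BDS lanes lay above the control mean for Socs3 over Stat3 and for Stat2 over Stat3, and below it for Socs1 over Socs3, and control 40 lay among the BDS lanes for Socs3 over Stat3.

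Across the 10 lanes the genes did not follow each other closely as a set. Pearson's r of log2 normalized counts was 0.79 between Stat5a and Socs3, 0.74 between Stat3 and Stat6, 0.64 between Socs1 and Socs3, 0.46 between Stat5a and Stat5b, 0.41 between Stat3 and Socs3 and -0.42 between Stat5a and Stat6. These describe 10 lanes that share the housekeeping scale and differ in depth. Among genes outside the set, the one most like Socs3 was Nfkb2, an NF-kB subunit, with r = 0.97 over 10 lanes (Spearman's rho = 0.98). R was 0.95 without controls 1 and 18, the lanes farthest from the median of Socs3. The nearest to Stat3 was Irf5, an interferon regulatory factor (r = 0.94, or 0.87 without controls 52 and 69), and the nearest to Stat6 was Btk, a B cell and myeloid kinase (r = 0.94, or 0.88 without these lanes). The nearest to Stat5a was Cd160 (r = 0.97), which was above the limit in only 7 of 10 lanes. The nearest to Stat5b was the adaptor Blnk (r = 0.89, or 0.68 without control 1 and BDS 59). To Socs1 it was Tnfaip3, an inhibitor of NF-kB (r = 0.86, or 0.67 without BDS 11 and control 1). Each was the highest of all tested genes outside the set, so a high value was bound to be found.

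The rest of the cytokine-to-STAT pathway was read in 6 lists with 79 places on the panel, 45 of them tested. By edgeR 0 of the 45 passed an adjusted p of 0.05, and 11 had an unadjusted p under 0.05, 6 higher and 5 lower in BDS, beside 28.3% of all tested genes. Of the 45, 23 were higher, against 55.8% of all tested genes, with a median log2 fold change of 0.00 against 0.09 over the panel. Few ligands were present: 4 of 23 cytokine genes were tested and 0 were higher, with a median of -0.28. The interleukin Il13 was at -1.16 ± 0.52 (SE) but above the limit in only 4 lanes, and at -0.02 with lane depth as a covariate.

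Of 25 cytokine receptor genes 18 were tested, 10 of them higher, with a median of 0.08, and 2 were higher and 2 lower at an unadjusted edgeR p under 0.05. The smallest p in the list was that of Csf3r, a granulocyte growth factor receptor that signals to Stat3, at -0.77 ± 0.24 (SE; adjusted p = 0.0890 by edgeR) and at -0.37 with lane depth as a covariate. The interleukin-10 receptor chain Il10rb was at 0.81 ± 0.26 (adjusted p = 0.0964 by edgeR), or 0.37 with that covariate. Il4ra, the chain through which interleukin-4 reaches Stat6, averaged 355 ± 184 normalized counts over BDS lanes and 206 ± 84.5 over control lanes (SD, n = 5 per group). The fitted log2 change was 0.83 ± 0.36 (SE; unadjusted p = 0.0355, adjusted p = 0.156, both by edgeR), at 0.84 with lane depth as a covariate and at 0.50 without BDS 17. All 4 Janus kinases were tested, 2 higher and 2 lower. Jak3, the kinase of interleukin-2 family receptors, had the smallest p of the 4, with a fitted log2 change of 1.07 ± 0.27 (SE; adjusted p = 0.0642 by edgeR) that was 0.66 with lane depth as a covariate. Jak1 averaged 77.7 ± 12.4 over BDS lanes and 189.7 ± 212 over control lanes, a fitted log2 change of -1.19 ± 0.53 (edgeR adjusted p = 0.156) that was -0.27 without control 52 and turned to 0.30 with lane depth as a covariate. Jak2, the kinase of growth hormone and granulocyte-macrophage receptors, was at -0.18 ± 0.20. Of 3 other tested inhibitors Ptprc, the phosphatase CD45, was at 0.83 ± 0.26 (SE; adjusted p = 0.0904 by edgeR), or 0.47 with lane depth as a covariate, and the phosphatases Ptpn6 and Ptpn2 were at -0.23 ± 0.17 and -0.05 ± 0.25.

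Of all tested genes 55.8% were higher in BDS, with a median of 0.09, and 28.3% had an unadjusted edgeR p under 0.05. Among interferon-inducible targets 11 of 13 were tested and 8 were higher, with a median of 0.30. At an unadjusted edgeR p under 0.05, 2 of them were higher and 1 lower, near the panel's share. The chemokine Cxcl10 and the RNA sensor Ifih1 were those 2. Without BDS 17, the deepest lane, their log2 fold changes were 0.71 and 0.46 in place of 1.09 and 0.67. The 1 lower gene, the peptide transporter Tap1, was at -1.80 ± 0.59 but above the limit in only 4 lanes, and at -0.90 without control 52. Of targets of Stat3, Stat5 and Stat6, 5 of 10 were tested, 2 were higher, 0 had an unadjusted p under 0.05, and the median was -0.04. In that list the repressor Bcl6, a target of Stat3, was at 0.41 ± 0.25 (edgeR adjusted p = 0.278), the Stat6-linked chemokine Ccl24 at -0.74 ± 0.36 (adjusted p = 0.184) and Irf4 at 0.21 ± 0.32 (adjusted p = 0.676). Ccl24 was at -0.21 with lane depth as a covariate.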

How the data were processed

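The authors deposited raw barcode counts per probe for 10 lanes; 5 PCR rounds on cDNA from 2 ng of RNA preceded hybridization, per the labels. The counting software was not given in the sources used here. A second table deposited by the authors holds values scaled to positive controls and housekeeping genes and rounded, treated here as a score. It also gives the percent of samples above background, a ratio of group means and an unadjusted p-value, which per the file headers is a t-test; the ratio and the p-value were copied.

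Raw counts were scaled by a geometric mean over Gapdh, Tbp, Sdha, Oaz1, Alas1 and Polr1b. Normalized counts are raw counts over that mean, rescaled to its geometric mean over lanes; log2 values use a pseudocount of 1. Genes present in 4 of 10 lanes (40%) were fitted with edgeR 4.0.16 in R 4.3.3 (quasi-likelihood F test, two-sided, no covariate), and p-values were adjusted by Benjamini-Hochberg over 283 genes; each SE is the fitted log2 change divided by root F. The edgeR script was tested on simulated data first. DESeq2 1.42.0 and limma 3.58.1 were alternatives. Ratios used exact permutation over all 252 assignments (scipy 1.17.1), whose smallest p is 0.00794. Counts are not independent molecules.

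All 8 accessions matched RefSeq symbols. All 8 genes are described; of the 6 pathway lists up to 3 genes each with the smallest p could be named, and for likeness the 1 gene of highest r, which is not reported here for Stat2. The genes, lists and pairs were chosen with earlier results of these data known. Settings without the 2 shallowest lanes, with and without the deepest, were added after seeing the data.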

Additional observations from a re-analysis of the deposited data

Results flagged for a closer look

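In 4 of 24 groups of 5 lanes (7 genes and 5 ratios, in control and BDS lanes) 1 lane stood apart by Dixon's test, where about 1 in 20 would by chance. Stat2 was low in control 69, at 81.5 normalized counts, and high in BDS 17, at 192. Stat5a was high in control 40, at 145 normalized counts. The log2 ratio of Socs3 over Stat3 was high in control 40, at -0.19. Control 40 was the deepest control lane, and the part of depth in these values was not tested.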

How the results depend on the processing

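No paired analysis was possible because control and BDS pups share no number. Stat2, Stat5a, Stat5b and Socs3 were higher in BDS under all settings run. With positive controls alone the median of all tested genes was 1.35 and 281 of 283 were above 0. A sign above 0 in that setting therefore does not set a gene apart from the panel. Stat3 turned to 1.33 with positive controls alone, 0.21 with lane depth, 0.022 without control 52, 0.29 without the 2 shallowest lanes and 0.17 without these and the deepest. Stat6 turned to 1.29 with positive controls alone, 0.083 with all panel housekeeping genes, 0.051 without Polr1b, 0.0036 without Tbp, 0.18 with lane depth, 0.018 and 0.0082 without controls 52 and 69, 0.139 without both and 0.135 without these and the deepest. Socs1 turned to -0.083 on the authors' values, -0.21 with lane depth and -0.000197 without control 1. With 1 pup left out, Stat3 ran from -0.38 to 0.022, Stat6 from -0.13 to 0.018, Socs1 from -0.000197 to 0.66 and the log2 difference of Stat6 over Stat3 from -0.012 to 0.26, with Stat5b from 0.19 to 0.39, Stat2 over Stat3 from 0.23 to 0.63 and Stat5a over Stat5b from 0.04 to 0.24. Among ratios, Stat6 over Stat3 turned to -0.012 without control 52 and -0.13 without the 2 shallowest lanes, where Stat5a over Stat5b was -0.046 and Stat2 over Stat3 -0.088. Socs1 over Socs3 was -1.02 with a pseudocount of 5 (exact adjusted p = 0.0397). It was -0.87 with a pseudocount of 0 (exact adjusted p = 0.0992) and -0.17 with background subtracted (exact adjusted p = 0.873). A pseudocount of 5 is close to the Socs1 raw counts of 9, 6 and 10 in controls 1, 52 and 69 and of 6 in BDS 11. 

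Genes at an adjusted p under 0.05 numbered 14 with positive controls alone, 12 without Gapdh, 15 without Polr1b, 10 with genes present in all 10 lanes, 25 by DESeq2 and 0 to 48 with 1 pup left out (48 without control 40, 19 without BDS 11); none was a STAT or SOCS gene except Socs3 without control 40, so that count ran from 0 to 1. Genes at an unadjusted p under 0.05 numbered 128 with positive controls alone, 139 with no filter, 36 with lane depth and 45 to 108 with 1 pup left out. Of 283 tested genes they numbered 88 without Polr1b, 81 without Gapdh, 80 without Tbp and 74 without Sdha. They numbered 74 by limma at a pseudocount of 1, 65 on the authors' values and 65 without the 2 shallowest lanes and the deepest. Among the 7 STAT and SOCS genes that number was 4 with positive controls alone, 3 without Polr1b, and 2 without Gapdh, without Tbp and by limma at each pseudocount. It was 0 without Sdha, on the authors' values, with lane depth and without the 2 shallowest lanes and the deepest. With 1 pup left out it was 0 to 2 (0 without control 1, control 18, BDS 17 or BDS 38). The counts with positive controls alone come from a scale on which 281 of 283 genes were above 0. The causes were not tested. Raw counts lay under the negative-control limit in 4 of 10 lanes for Socs1, in 9 for Stat4, deep lanes included, and in control 52 for Stat2 and Stat5a.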
